A study of Arabidopsis thaliana with 80 samples.

Results

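Expression of 9 genes of the light and ultraviolet-B signalling pathway was followed in rosette leaves of Arabidopsis thaliana grown in pots in an outdoor garden. The genes were the transcription factors HY5 (AT5G11260) and HYH (AT3G17609), the ultraviolet-B feedback regulators RUP1 (AT5G52250) and RUP2 (AT5G23730), the ubiquitin ligase genes COP1 (AT2G32950), SPA1 (AT2G46340) and SPA4 (AT1G53090), and the light-stress genes ELIP1 (AT3G22840) and ELIP2 (AT4G14690). They were taken by locus as 9 rows of a table of 33602 genes, and all 9 passed the filter on low values that left 20871 genes for testing.

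Col-0, the laboratory reference line, was grown beside 3 wild accessions of southern Spanish origin named Bon, Moj and Vel, with no treatment beyond garden conditions. Each library came from polyadenylated RNA pooled from 5 plants, with roots discarded and flower stalks removed from plants that had bolted. Sampling took place between 10:00 and 10:30, called morning, and between 15:30 and 16:00, which the labels call evening although it is an afternoon window. There were 4 collections, ex1 to ex4, and the last held only Col-0 and Vel. The labels mention vegetative, inductive and reproductive stages without tying a stage to a collection, and a collection has the same label as its RNA extraction, so those cannot be told apart. After 1 library labelled Moj ex3 morning replicate 1 was left out, 79 libraries in 28 groups remained, 23 groups of 3 and 5 of 2.

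HY5 is a bZIP transcription factor that activates many light-responsive genes, and HYH is its close relative. In darkness COP1, an E3 ubiquitin ligase that works in complexes with SPA proteins, marks HY5 for degradation. Absorption of ultraviolet-B turns the photoreceptor UVR8 into monomers that bind COP1 and so spare HY5, which in turn activates RUP1 and RUP2. The RUP proteins help UVR8 return to its inactive dimer, which closes a negative feedback loop. ELIP1 and ELIP2 are chlorophyll-binding thylakoid proteins that accumulate under strong light and are known targets of HY5.

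The gap between sister genes differed among collections and times of day. This also held for SPA1 minus SPA4 (median log2 gap of 0.5 in the ex1 mornings and 2.19 in the ex2 evenings). Whether promoter elements play a part in these gaps was not tested. The promoters of 3 other pairs are shown, without SPA1 and SPA4, because HY5 is known to bind ACGT-containing elements. Each is the 200 bases before the annotated gene start in the reference Col-0 sequence (RefSeq, assembly TAIR10.1, of which TAIR10 in the submitters' processing notes is the earlier release), written 5′ to 3′ on the gene's strand, and the other accessions may differ from it. Capitals mark the core ACGT, or CACGTG (the G-box) where the core lies within it. The HY5 window is chr5:3595074-3595273 on the minus strand, and that of HYH is chr3:6023644-6023843 on the plus strand. The RUP1 window is chr5:21216572-21216771 on the plus strand, and that of RUP2 is chr5:8004897-8005096 on the plus strand. The ELIP1 window is chr3:8085670-8085869 on the minus strand, and that of ELIP2 is chr4:8418042-8418241 on the plus strand.
HY5: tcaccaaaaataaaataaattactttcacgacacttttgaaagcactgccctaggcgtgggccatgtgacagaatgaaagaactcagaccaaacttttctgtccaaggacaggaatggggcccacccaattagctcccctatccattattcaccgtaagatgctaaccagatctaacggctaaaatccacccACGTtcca
HYH: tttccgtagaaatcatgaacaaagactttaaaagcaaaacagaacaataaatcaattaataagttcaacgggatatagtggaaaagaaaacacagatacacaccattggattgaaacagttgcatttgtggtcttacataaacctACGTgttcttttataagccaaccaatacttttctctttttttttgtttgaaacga
RUP1: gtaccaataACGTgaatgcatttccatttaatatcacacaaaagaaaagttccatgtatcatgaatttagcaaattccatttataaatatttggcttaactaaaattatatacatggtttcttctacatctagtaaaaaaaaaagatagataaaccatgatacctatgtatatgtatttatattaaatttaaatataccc
RUP2: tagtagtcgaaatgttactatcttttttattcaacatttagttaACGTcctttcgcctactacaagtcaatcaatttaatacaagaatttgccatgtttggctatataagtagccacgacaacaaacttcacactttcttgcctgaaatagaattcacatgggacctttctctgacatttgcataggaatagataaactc
ELIP1: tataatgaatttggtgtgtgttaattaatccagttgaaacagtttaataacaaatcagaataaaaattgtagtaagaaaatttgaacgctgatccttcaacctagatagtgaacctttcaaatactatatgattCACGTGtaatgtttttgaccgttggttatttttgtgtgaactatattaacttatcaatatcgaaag
ELIP2: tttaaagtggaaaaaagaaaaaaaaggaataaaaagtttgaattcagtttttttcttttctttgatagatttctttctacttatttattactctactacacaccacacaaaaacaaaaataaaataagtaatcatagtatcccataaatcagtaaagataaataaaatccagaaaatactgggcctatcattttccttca

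The core ACGT, which reads the same on both strands, was present in 7 of the 9 promoters (77.8%), against 38.4% of 27443 protein-coding promoters of that length. It was absent from the windows of SPA4 and ELIP2. Counted from the gene start, it began at position -8 in HY5, -44 in COP1, -55 in HYH, -65 in ELIP1, -107 in SPA1, -156 in RUP2 and -191 in RUP1. ELIP1 alone held CACGTG, found in 5.64% of all promoters and overlapping its single ACGT. No member held GACGTC (1.96% of promoters), TACGTA (4.07%) or the evening element AAAATATCT searched on both strands (1.92%). These are matches of letters in short windows only.

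Values are log2 of a length-normalized estimate plus 1, so levels can be set side by side between genes, and differences below are in log2 units unless a fold is given. The table had been quantile normalized, so that every library holds the same set of values and a gene's value reflects its rank. Depth is unknown, because no counts were used here. Leaf identity was checked first. RBCS1A, a Rubisco subunit gene of green tissue, lay between 10.89 and 13.3 in all 79 libraries, and the leaf markers LHCB1.1 (3.81 to 12.07) and CA1 (5.04 to 11.17) were detected in all. LHCB1.1, for a light-harvesting protein, differed between evening and morning by -0.09 in ex1, -1.69 in ex2, -3.44 in ex3 and -4.54 in ex4, and both it (-1.54) and CA1 (-1.61) fell from ex1 to ex2. Of the root markers, RHD6 was at 0 in 77, COBL9 in 62, CASP1 in 57 and IRT1 in 53 libraries, whereas PYK10 ranged from 0.32 to 5.37. The summed back-transformed level of 6 flower organ markers ran from 0.00 to 1.18 in ex1 and reached 16.8 in ex2, 30.0 in ex3 and 5.55 in ex4. AP3 was at 0 in 41 and A9 in 62 libraries. From ex1 to ex2, 5 of these 6 markers rose and none fell, and the part of flower and leaf markers in the results below was not tested. In leaf pools, fewer cells of a type and less RNA per cell cannot be told apart. The library left out correlated best with Vel ex3 morning replicate 1 (Pearson r = 0.984 across genes). Its values were 3.92 for HY5 and 6.14 for HYH, below both other Moj ex3 morning libraries (5.14 and 4.88 for HY5, 6.98 and 6.96 for HYH).

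ELIP1 was by far the most abundant of the 9 genes and RUP1 the least. Over the 79 libraries ELIP1 had a median of 10.65 (8.41 to 13.3), ELIP2 of 8.13 (4.65 to 10.76), HYH of 6.65 (2.96 to 7.54), SPA1 of 5.22 (4.43 to 6.24), HY5 of 4.76 (2.93 to 6.37), COP1 of 4.74 (4.17 to 6.02), SPA4 of 3.81 (2.57 to 5.01), RUP2 of 3.54 (1.99 to 5.25) and RUP1 of 2.2 (0.89 to 4.43). Neighbours in this order overlapped in range, and HY5 and COP1 had nearly the same median. ELIP2 had the widest range of group means, 5.29 between Vel ex4 evening (5.34) and Bon ex1 evening (10.63). No fold is given, because its ex1 values lie near the top of the scale. ELIP2 was among the 50 highest genes in 13 of the 22 ex1 libraries. On values that include the offset of 1, HYH spanned 13.5-fold, RUP1 10.1-fold, RUP2 6.70-fold, HY5 6.06-fold and SPA4 4.53-fold. The offset understates folds most where levels are low. Back-transformed group levels ran from 0.950 to 18.7 for RUP1 and from 11.3 to 165 for HYH, the wider ratio being that of RUP1. For ELIP1 the group means ran from 9.34 to 12.88, near the top of the scale, where a fold cannot be read. COP1 (1.59) and SPA1 (1.62) had narrower ranges of group means than the median tested gene (1.78), and the other 7 had wider ones.

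**Figure D1:**
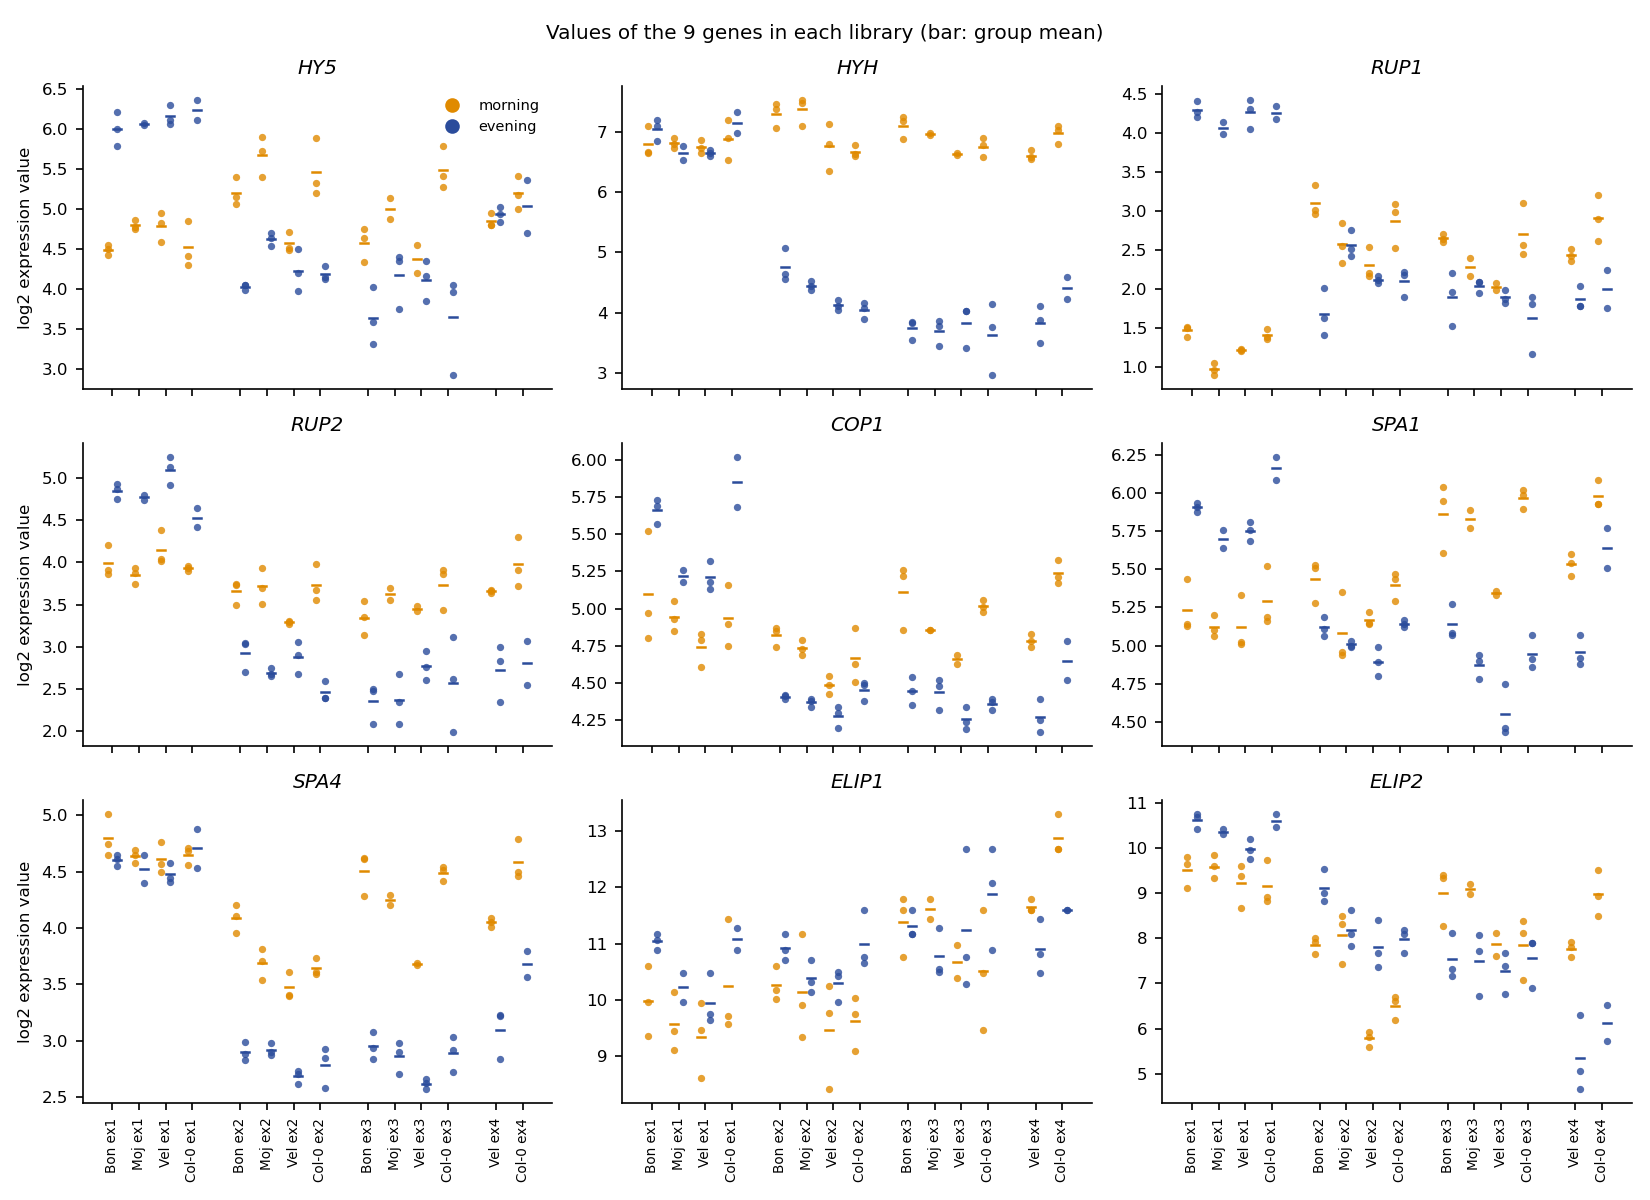
Log2 expression value of each of the 9 genes (vertical axes, one panel a gene, scales differ) in every library, by accession and collection (horizontal axis). Points are libraries, orange in the morning and blue in the evening, and short bars are group means. In ex1 the blue points of RUP1 sit between 3.99 and 4.43 above orange points between 0.89 and 1.51, and in later collections blue lies below or among orange. HYH evening points drop from 6.54 to 7.33 in ex1 to between 2.96 and 5.07 afterwards, while its morning points stay between 6.35 and 7.54.

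The first comparison asked how the genes differed between morning and evening in each collection. In ex1, 7 of the 9 genes were higher in the evening and none was lower, against 22.1% of all tested genes higher and 25.7% lower (47.8% called in all). In ex2, 2 were higher (the ELIP genes) and 7 lower, against 33.7% higher and 33.1% lower (66.8% in all). In ex3, 8 were lower and none higher (28.7% of tested genes lower and 29.9% higher, 58.6% in all). In ex4, with Col-0 and Vel only, again 8 were lower and none higher (23.9% lower and 25.0% higher, 48.9% in all). HY5, RUP1, RUP2, COP1 and SPA1 were higher in the evening in ex1 and lower in both ex2 and ex3, a pattern of calls shared by 726 genes or 3.48% of those tested. All calls are from limma with Benjamini-Hochberg adjusted p under 0.05 over all tested genes. All plants came from a single garden and nothing in the labels says whether the pools of a group were grown apart. The p-values therefore speak of variation among these pools.

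Among the transcription factors, HY5 reversed its daily direction while HYH lost its evening level. In ex1 the 12 morning libraries of HY5 lay between 4.31 and 4.96 (median 4.67) and the 10 evening libraries between 5.79 and 6.37 (median 6.1). The groups did not overlap in any of the 4 accessions. The evening was higher by 1.46 (SE 0.105, adjusted p = 3.9e-18, limma), or 2.76-fold. In ex2 the morning libraries lay between 4.49 and 5.91 (median 5.27) and the evening libraries between 3.98 and 4.7 (median 4.19). Evening was below morning without overlap in Bon, Moj and Col-0, and the Vel groups overlapped. The difference was -0.96 (SE 0.099, adjusted p = 1.2e-12) and in ex3 -0.97 (SE 0.105, adjusted p = 1.1e-11). In ex4 the evening libraries (4.71 to 5.37) overlapped the morning libraries (4.81 to 5.42) in both accessions, and the difference of -0.04 did not pass the test (95% interval -0.34 to 0.26, adjusted p = 0.843).

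HYH behaved otherwise from the start. In ex1 its morning libraries (6.54 to 7.21, median 6.78) and evening libraries (6.54 to 7.33, median 6.81) overlapped in all 4 accessions, with a difference of 0.06 (95% interval -0.14 to 0.26, adjusted p = 0.65). In ex2 the morning values were 6.35 to 7.54 (median 7.09) and the evening values 3.9 to 5.07 (median 4.29). No evening library reached any morning library in ex2, ex3 or ex4. The evening difference was -2.69 in ex2 (SE 0.095, adjusted p = 3.7e-32), -3.15 in ex3 (SE 0.101, adjusted p = 4.8e-34) and -2.68 in ex4 (SE 0.142, adjusted p = 4.5e-23). In ex2 and ex3 this was the largest difference of the 9 genes, and in ex4 it could not be ranked against ELIP2 (-2.65, SE 0.272). In Col-0 the single libraries of ex2 were 6.78, 6.6 and 6.64 in the morning and 4.08, 4.16 and 3.9 in the evening. HYH stood above HY5 in every morning library, by a median of 2.15 in ex1 and 1.74 in ex4. In the evening its median lead was 0.78 in ex1, and it turned to -0.11 in ex2, -0.25 in ex3 and -0.92 in ex4, where HY5 was the higher of the pair in all 5 libraries.

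RUP1 had the largest evening rise of the 9 genes in ex1. The 12 morning libraries held 0.89 to 1.51 (median 1.29) and the 10 evening libraries 3.99 to 4.43 (median 4.24), and no library of any later collection exceeded 3.33. In Moj the morning values were 0.95, 1.05 and 0.89 and the evening values 3.99 and 4.14. The difference was 2.96 (SE 0.089, adjusted p = 2.6e-35), with 2.83 in Bon, 3.10 in Moj, 3.06 in Vel and 2.86 in Col-0. Because an offset of 1 lies under these values, the fold of this gene is understated. From ex2 onward RUP1, averaged over accessions, was lower in the evening. The difference was -0.60 in ex2 (SE 0.084, adjusted p = 8e-09), -0.56 in ex3 (SE 0.089, adjusted p = 3e-07) and -0.74 in ex4 (SE 0.125, adjusted p = 1.8e-06). Within single accessions RUP1 passed in ex2 and ex3 in Bon and Col-0 but not in Moj or Vel, and in ex4 in both Col-0 and Vel.

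RUP2, its sister, moved in the same directions with a smaller first rise. Morning values in ex1 were 3.74 to 4.38 (median 3.93) and evening values 4.42 to 5.25 (median 4.83), without overlap within any accession. The evening difference was 0.83 in ex1 (SE 0.093, adjusted p = 3.8e-11), -0.86 in ex2 (SE 0.088, adjusted p = 1.1e-12), -1.02 in ex3 (SE 0.093, adjusted p = 3.7e-14) and -1.05 in ex4 (SE 0.132, adjusted p = 1.8e-09). RUP2 and COP1 were the members whose evening values lay above morning in all 4 accessions of ex1 and below it in all 4 of ex2 and of ex3, as did 0.264% of tested genes. RUP2 exceeded RUP1 by a median of 2.69 in the ex1 mornings and by 0.55 to 1.15 in every other set of libraries.

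**Figure D2:**
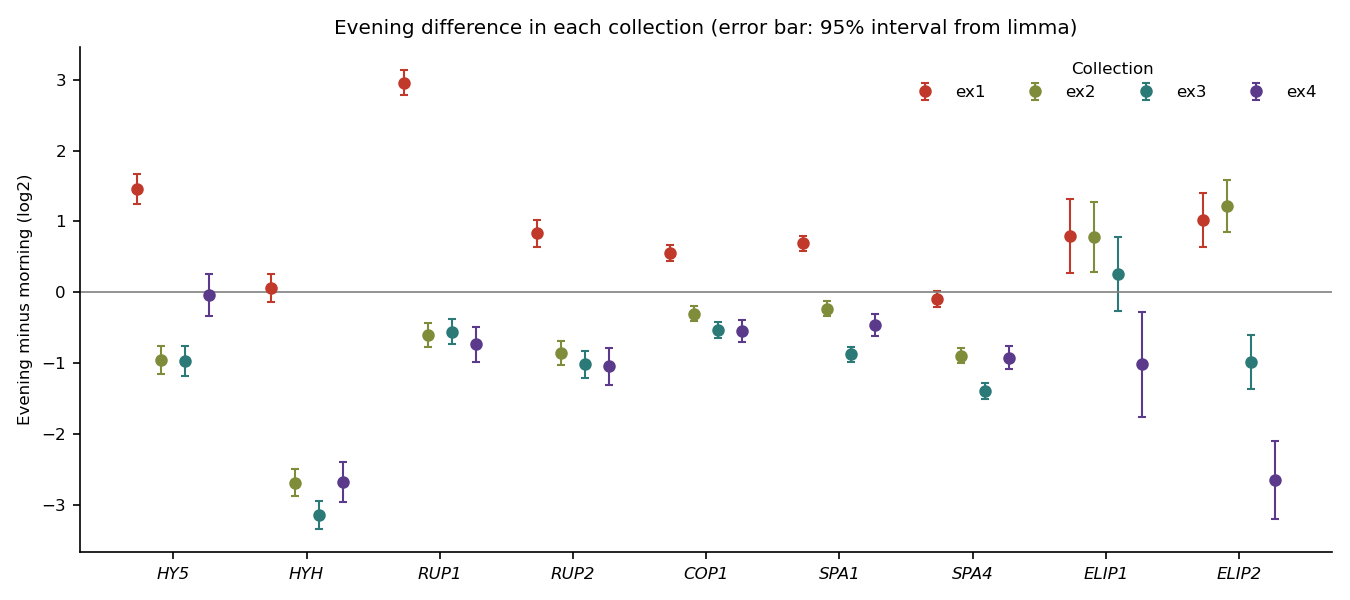
Evening minus morning difference in log2 units (vertical axis) for each gene (horizontal axis) in ex1 to ex4, averaged over accessions, with 95% intervals from limma. Red ex1 points lie above 0 for all genes but SPA4 (-0.10), from 0.06 for HYH, whose interval spans 0, up to 2.96 for RUP1, and all ex2 to ex4 points of HYH, RUP1, RUP2, COP1, SPA1 and SPA4 lie below 0.

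COP1 and SPA1 had the smallest ranges of group means, and SPA4 a wider one. COP1 held 4.61 to 5.52 (median 4.87) in the ex1 mornings and 5.13 to 6.02 (median 5.45) in the ex1 evenings, with no overlap within an accession. Its evening difference was 0.56 in ex1 (SE 0.057, adjusted p = 1.5e-12), -0.30 in ex2 (SE 0.053, adjusted p = 1.9e-06), -0.54 in ex3 (SE 0.057, adjusted p = 4.4e-12) and -0.55 in ex4 (SE 0.080, adjusted p = 7.5e-08). SPA1, a COP1 partner, went from 5.01 to 5.52 in the mornings to 5.64 to 6.24 in the evenings of ex1. Its differences were 0.69, -0.23, -0.88 and -0.46 in ex1 to ex4, the largest adjusted p being 7.7e-05 in ex2. SPA4, another partner, had overlapping values in ex1 (4.5 to 5.01 in the morning, 4.4 to 4.88 in the evening). Its ex1 difference of -0.10 did not pass the test (adjusted p = 0.153), but did without Col-0 ex1 evening replicate 1 (-0.14, adjusted p = 0.0481). In ex2 its evening libraries (2.58 to 2.99) lay wholly below its morning libraries (3.4 to 4.2), and the differences were -0.90, -1.40 and -0.92 in ex2, ex3 and ex4, with adjusted p of 1.9e-14 or less. SPA4 thus passed in the same collections and direction as HYH, and SPA1 in the same ones as COP1.

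The ELIP genes ran on another course. ELIP2 rose in the evening of ex1 from 8.68 to 9.84 (median 9.49) to 9.76 to 10.76 (median 10.42), without overlap within any accession, and of ex2 from 5.6 to 8.49 (median 7.07) to 7.36 to 9.54 (median 8.14). In ex4 it fell from morning values of 7.58 to 9.52 to evening values of 4.65 to 6.52. Its differences were 1.02 in ex1 (SE 0.193, adjusted p = 1.1e-05), 1.22 in ex2 (SE 0.182, adjusted p = 4.3e-08), -0.99 in ex3 (SE 0.193, adjusted p = 1.5e-05) and -2.65 in ex4 (SE 0.272, adjusted p = 4.5e-12). ELIP1 rose by 0.79 in ex1 (SE 0.261, adjusted p = 0.00975) and by 0.78 in ex2 (SE 0.246, adjusted p = 0.00489). Its ex3 difference of 0.26 did not pass (95% interval -0.27 to 0.78, adjusted p = 0.412), and the fall of -1.02 in ex4 (SE 0.370, adjusted p = 0.0187) had an adjusted p of 0.0505 without Col-0 ex4 evening replicate 1 and of 0.0502 without replicate 2. Within single accessions ELIP1 passed only in Col-0, in ex2 (1.37, adjusted p = 0.0193) and ex3 (1.37, adjusted p = 0.0272). Its replicate spread was the widest of the 9 genes (pooled SD 0.62), as in Col-0 ex3 mornings with 10.47, 11.59 and 9.47.

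Non-overlap within every accession of a collection, read from the same values, held for fewer genes than were called in ex1, ex2 and ex3. Evening lay above morning in all 4 accessions of ex1 for 6 of the 9 genes (HY5, RUP1, RUP2, COP1, SPA1 and ELIP2), against 7.63% of tested genes. It lay below in all 4 accessions of ex2 for 4 genes (HYH, RUP2, COP1 and SPA4; 9.15% of tested genes) and of ex3 for 5 (these and SPA1; 8.99%). In both accessions of ex4 it lay below for 8 genes, all but HY5 (16.5%).

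The change of the evening difference between collections was tested directly. From ex1 to ex2 it fell in 7 genes, all but the ELIP genes, against 28.2% of tested genes falling and 30.8% rising (59.0% in all). The change was -3.56 for RUP1 (SE 0.122, adjusted p = 5.5e-32), -2.75 for HYH, -2.42 for HY5, -1.69 for RUP2, -0.92 for SPA1, -0.86 for COP1 and -0.80 for SPA4, with adjusted p of 5.2e-13 or less. For ELIP1 it was -0.02 (95% interval -0.74 to 0.70) and for ELIP2 0.20 (-0.33 to 0.73). From ex2 to ex3 it fell again in 5 genes (18.4% of tested genes falling and 17.9% rising, 36.3% in all). It fell by 2.2 for ELIP2 (adjusted p = 2.7e-09), 0.64 for SPA1, 0.50 for SPA4, 0.46 for HYH and 0.24 for COP1. The COP1 change of -0.24 (adjusted p = 0.0139) did not pass with the left-out Moj library kept (-0.19, adjusted p = 0.0796). From ex3 to ex4 in Col-0 and Vel it rose for HY5 (1.005, SE 0.210, adjusted p = 0.00071), SPA1 (0.45, adjusted p = 0.00351) and SPA4 (0.40, adjusted p = 0.0148), against 5.02% of tested genes, and fell for ELIP2 (-2.21, adjusted p = 5.7e-05) and ELIP1 (-1.98, adjusted p = 0.00825), against 4.92% (9.94% in all). The SPA4 rise was lost without Col-0 ex4 evening replicate 2 (0.35, adjusted p = 0.0683). Fitted on the compared groups alone, ELIP1 had an adjusted p of 0.0603. Successive changes share the libraries of the collection between them. Over ex1 to ex3 the F test for a collection-dependent evening difference passed for 8 of 9 genes, all but ELIP1 (adjusted p = 0.3), against 71.6% of tested genes.

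The second comparison followed the genes from one collection to the next, averaged over both times of day. From ex1 to ex2, 8 of 9 genes fell and none rose, against 43.7% of tested genes falling and 39.5% rising (83.2% in all). ELIP2 fell by 2.22 (SE 0.132, adjusted p = 2e-22), SPA4 by 1.35, RUP2 by 1.23, HYH by 1.16, COP1 by 0.68, HY5 by 0.63, SPA1 by 0.38 and RUP1 by 0.33 (SE 0.061, adjusted p = 2.1e-06). ELIP1 differed by 0.08 (95% interval -0.28 to 0.44, adjusted p = 0.664). For HYH the evening median went from 6.81 to 4.29 and the morning median from 6.78 to 7.09. For RUP1 the evening median went from 4.24 to 2.13 and the morning median from 1.29 to 2.69. By accession, 8 genes fell in each of Bon (37.4% of tested genes), Vel (37.2%) and Col-0 (29.3%), and 6 in Moj (38.5%), where HY5 (-0.28, adjusted p = 0.0899) and RUP1 (0.05, adjusted p = 0.741) did not pass.

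From ex2 to ex3, ELIP1 rose by 0.91 (SE 0.180, adjusted p = 2.4e-05), SPA4 by 0.26, SPA1 by 0.16 and COP1 by 0.12, 4 genes against 27.8% of tested genes rising. HYH fell by 0.39, HY5 by 0.37 and RUP1 by 0.27, 3 genes against 27.0% falling (54.7% called in all). The COP1 rise had an adjusted p of 0.0102, and of 0.0675 with the left-out Moj library. RUP2 (-0.14, adjusted p = 0.0584) and ELIP2 (0.30, adjusted p = 0.0535) passed when single libraries were left out, in 12 and 18 of the 79 fits. In Vel none of the 9 genes passed for this step (6.89% of tested genes called) and ELIP1 differed by 1.07 (adjusted p = 0.0669).

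From ex3 to ex4, in Col-0 and Vel, 7 genes rose (30.0% of tested genes) and ELIP2 fell (26.7%; 56.7% called in all). All 6 flower organ markers fell in the same step, with a median of -0.66, and so did the 3 leaf markers, LHCB1.1 by 2.69, CA1 by 2.79 and RBCS1A by 0.82. The part of either in these values was not tested. HY5 rose by 0.60 (SE 0.105, adjusted p = 2.8e-06), SPA4 by 0.44 (adjusted p = 3.8e-09) and SPA1 by 0.33 (adjusted p = 8.9e-07). The rises of HYH (0.25, adjusted p = 0.0316), RUP1 (0.24, adjusted p = 0.0173), COP1 (0.16, adjusted p = 0.0127) and ELIP1 (0.68, adjusted p = 0.0227) each failed to pass when certain single libraries were left out, in 7, 2, 1 and 4 of the 79 fits. Without Col-0 ex3 evening replicate 1, the lowest library of the series for HY5 (2.93), HYH (2.96) and RUP2 (1.99), the count of genes passing was 5, with adjusted p of 0.124 for HYH, 0.0622 for RUP1 and 0.0643 for ELIP1. Without Col-0 ex4 evening replicate 1, COP1 had an adjusted p of 0.0665. ELIP2 fell by 0.59 (SE 0.193, adjusted p = 0.00759). In Col-0 alone 7 genes rose (29.2% of tested genes). In Vel, HY5, SPA1 and SPA4 rose (14.8%) and ELIP2 fell by 1.02 (15.9%).

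ELIP1 and ELIP2 were closer by median in ex1 than in later collections. In ex1 ELIP1 minus ELIP2 had a median of 0.31 in the morning (-0.23 to 1.71) and 0.19 in the evening (-0.34 to 0.82), with ELIP2 at or above ELIP1 in 3 of 12 and 3 of 10 libraries. Accessions differed in ex1, with mean gaps of 1.09 (morning) and 0.47 (evening) in Col-0 and 0.45 and 0.42 in Bon. They were -0.03 and -0.15 in Moj and 0.12 and -0.03 in Vel. In every later library ELIP1 was the higher. The median gap was 2.84 in the ex2 mornings, 2.32 in the ex2 evenings, 2.47 and 3.84 in ex3, and 3.85 and 5.81 in ex4. In Vel ex4 evenings ELIP1 was 10.47, 11.44 and 10.81 beside ELIP2 at 4.65, 5.05 and 6.31. ELIP1 stood among the 10 highest genes in 29 of 79 libraries, 9 of them among the 11 of ex4, and was the highest of all genes in Col-0 ex4 morning replicate 1. Since quantile normalization gives each rank a fixed value, changes near the top can be read only as ranks. ELIP1 and ELIP2 share none of the 1216 stretches of 50 bases in the ELIP1 gene, and the other pairs (HY5 and HYH, RUP1 and RUP2, SPA1 and SPA4) share none either. Shorter matches were not searched, and how reads matching both genes were counted is not given in the sources used here.

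**Figure D3:**
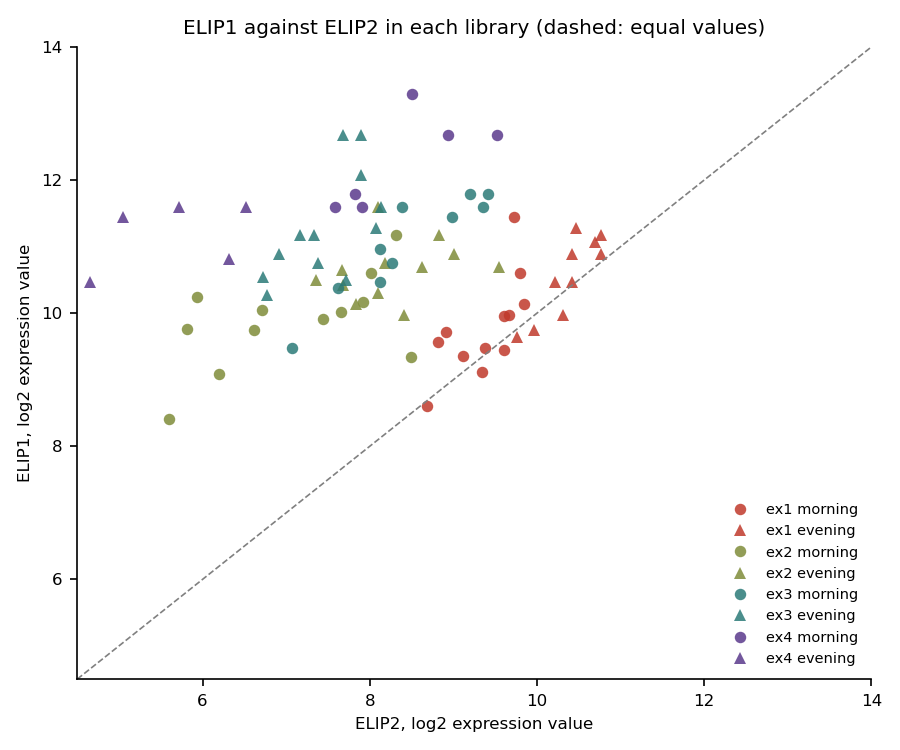
ELIP1 (vertical axis) against ELIP2 (horizontal axis), log2 expression values, 1 point a library, coloured by collection, circles for morning and triangles for evening, with a dashed line of equal values. The red ex1 points lie around the line, with ELIP1 minus ELIP2 from -0.34 to 1.71. All later points lie above it, farthest in the ex4 evenings, where the median gap is 5.81.

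The third comparison set the Spanish accessions against Col-0 over ex1 to ex3. These contrasts share the Col-0 libraries, so their values are given side by side only. In Bon, HYH (0.27), SPA4 (0.12) and ELIP2 (0.67, SE 0.151, adjusted p = 0.00011) were higher, 3 genes against 32.9% of tested genes, and HY5 was lower (-0.27, adjusted p = 0.00345; 33.6%, and 66.5% called in all). In Moj, ELIP2 was higher (0.52, SE 0.157, adjusted p = 0.00285; 33.0%), and SPA1 (-0.22) and COP1 (-0.12) were lower (35.7%, and 68.7% called in all). In Vel 6 genes were lower and none higher, against 32.3% of tested genes lower and 32.2% higher (64.6% in all). They were ELIP1 (-0.56, SE 0.209, adjusted p = 0.0172), SPA1 (-0.35, SE 0.044, adjusted p = 5.4e-10), COP1 (-0.27, SE 0.045, adjusted p = 5.4e-07), SPA4 (-0.27, SE 0.046, adjusted p = 8.3e-07), HY5 (-0.22, adjusted p = 0.0192) and RUP1 (-0.19, adjusted p = 0.0176).

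Several of these small differences depended on 1 library or on the scaling. HY5 in Vel had an adjusted p of 0.0562 without Vel ex3 morning replicate 1. COP1 in Moj had 0.0847 without Col-0 ex1 evening replicate 1, and its difference shrank to -0.02 (adjusted p = 0.733) when libraries were scaled to 5 reference genes. SPA4 in Bon had 0.1 without Col-0 ex1 evening replicate 3, and HY5 in Bon had 0.0943 under that scaling. ELIP1 in Vel had 0.0686 when only the compared groups were fitted. Under that scaling COP1 in Bon (0.15, adjusted p = 0.00357), HY5 in Moj (0.23, adjusted p = 0.021) and HYH in Moj (0.24, adjusted p = 0.014) passed as well. With other libraries left out in turn, 3 further differences passed. HYH in Moj and RUP2 in Vel passed without Col-0 ex3 evening replicate 3 (0.18 and 0.16), and ELIP2 in Vel passed without Col-0 ex3 morning replicate 3 or evening replicate 1 (-0.35 and -0.34).

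Vel was also low against its Spanish neighbours. Against Bon, 7 genes were lower and none higher (25.5% of tested genes lower), with ELIP2 at -0.96 (SE 0.151, adjusted p = 2.9e-07), ELIP1 at -0.65, SPA4 at -0.39 (adjusted p = 1e-10), HYH at -0.33, COP1 at -0.32, SPA1 at -0.31 and RUP1 at -0.21. Against Moj, 6 were lower (24.3%, and 51.9% called in all), among them ELIP2 (-0.81, adjusted p = 1.6e-05), HY5 (-0.35, adjusted p = 0.00052) and SPA4 (-0.22, adjusted p = 5.5e-05). The HYH difference to Moj (-0.20, adjusted p = 0.0361) did not pass in 10 of the 79 leave-one-out fits. With the left-out Moj library kept, HYH (-0.15, adjusted p = 0.134) and SPA1 (-0.10, adjusted p = 0.0912) did not pass. That library correlated best with a Vel library, and its HYH (6.14) and SPA1 (5.25) values lay below both other Moj ex3 morning libraries. Keeping it under Moj therefore narrows these differences by itself and is no independent check of them. Of the 6 flower organ markers, 5 were lower and 1 higher in Vel than in Bon, and their part in these differences was not tested. Averaged over ex1 to ex3, RUP2 passed in no pair of accessions, although within single collections it was higher in Vel than in Col-0 in ex1 (0.39, adjusted p = 0.0132) and lower in Bon than in Col-0 in ex3 (-0.31, adjusted p = 0.0289). Bon exceeded Moj in SPA1 (0.18), COP1 (0.16) and SPA4 (0.16), 3 genes against 22.6% of tested genes, and 5 of 6 flower organ markers were also higher, their part in these differences not being tested. Bon was lower than Moj in HY5 (-0.40, adjusted p = 8.3e-05; 22.4%, and 45.0% called in all).

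The calls against Col-0 in single collections were as follows, and a call in one collection and not in another is no test of a change. In ex1 none of the 9 genes differed between Bon and Col-0 (43.9% of tested genes called), whereas in ex2 Bon was higher in ELIP2 (1.25, SE 0.257, adjusted p = 3.9e-05), HYH (0.67, SE 0.134, adjusted p = 2.6e-05) and SPA4 (0.28), against 26.3% of tested genes. The ELIP2 libraries of ex2 mornings were 7.92, 7.66 and 8.01 in Bon, 7.44, 8.49 and 8.31 in Moj, 6.19, 6.62 and 6.71 in Col-0, and 5.93, 5.6 and 5.81 in Vel. In these mornings Bon and Moj lay above Col-0, and Col-0 above Vel, without overlap. The share of all tested genes ordered this way was not counted. In the ex2 evenings Bon (8.83 to 9.54) lay above Col-0 (7.67 to 8.18), whereas Moj (7.83 to 8.62) and Vel (7.36 to 8.41) overlapped Col-0. Over both times of ex2, ELIP2 did not pass for Vel against Col-0. Moj in ex2 was higher in ELIP2 (0.89), HYH (0.55) and HY5 (0.32), against 25.2% of tested genes, and lower in SPA1 (-0.23; 29.6%). In ex1 Moj was lower in RUP1 (-0.32), COP1 (-0.31) and SPA1 (-0.32), against 21.5%, and in ex3 none of the 9 genes passed for Moj (63.2% called). Bon in ex3 was lower in HY5 (-0.46) and RUP2 (-0.31), against 34.4%. Vel in ex1 was higher in RUP2 and lower in COP1, SPA1 and ELIP1 (-1.02), against 20.8% higher and 20.1% lower. Vel in ex2 was lower in HY5, RUP1, COP1 and SPA1, against 26.4% of tested genes, and higher in none. Vel in ex3 was lower in COP1, SPA1 and SPA4, against 27.0%, and higher in none. In ex4, 7 genes were lower in Vel than in Col-0 (27.5% of tested genes lower), with ELIP2 at -1.0 (SE 0.272, adjusted p = 0.00163), ELIP1 at -0.95, SPA1 at -0.57, SPA4 at -0.56, HYH at -0.48, COP1 at -0.42 and RUP1 at -0.30. COP1 and SPA1 were lower in Vel in all 4 collections. COP1 differed by -0.42, -0.18, -0.23 and -0.42, and SPA1 by -0.29, -0.24, -0.52 and -0.57. The F test for accession-dependent change between collections passed for 7 of the 9 genes, a share near the 72.9% of all tested genes. For RUP1 (adjusted p = 0.0404) it failed in 16 of the 79 leave-one-out fits and without the filter on low values (0.0516). For ELIP2 (0.0264) it failed in 2 of those fits (adjusted p up to 0.0589). Under reference gene scaling it failed for SPA1 (0.0703) and SPA4 (0.0532).

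**Figure D4:**
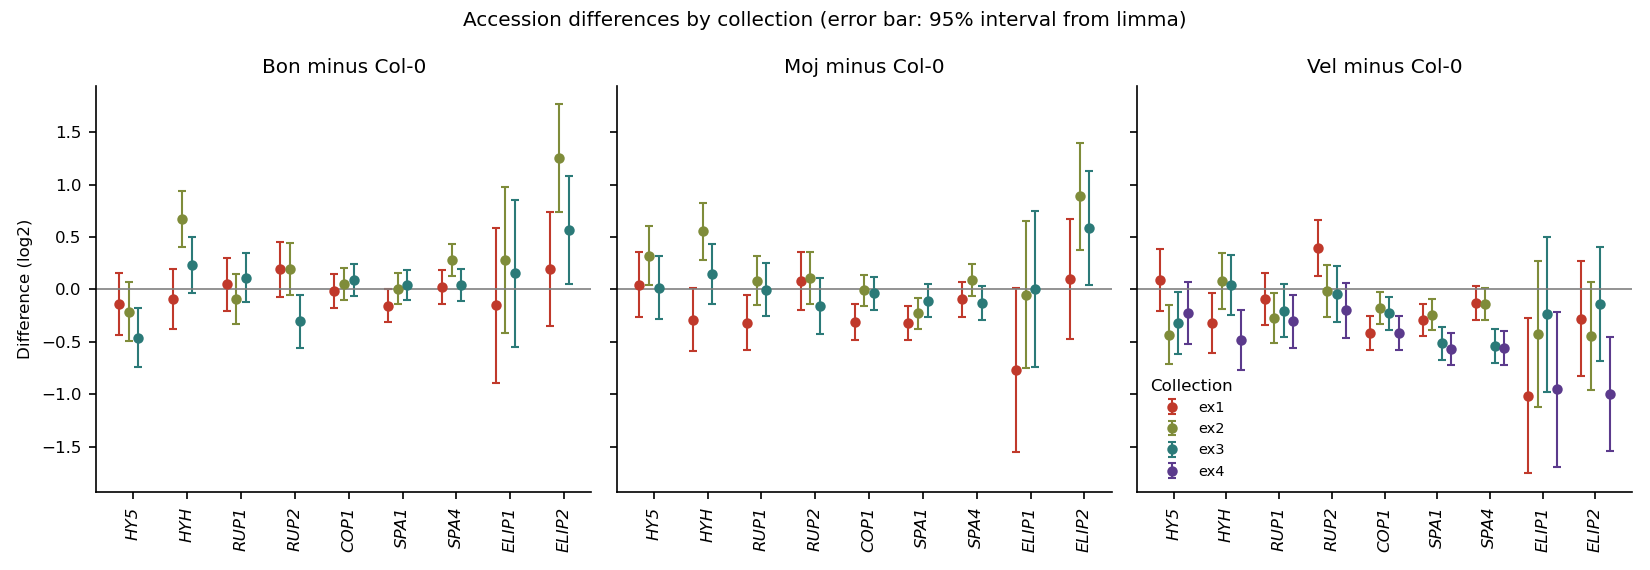
Difference of Bon, Moj and Vel from Col-0 (panels) in log2 units (vertical axis) for each gene (horizontal axis) and collection (colours), with 95% intervals from limma. ELIP2 in Bon and Moj stands highest in ex2 (1.25 and 0.89), and in Vel the COP1 and SPA1 points lie below 0 in all 4 collections.

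The evening difference itself depended on accession for 5 of 9 genes by the F test over ex1 to ex3, RUP1 (adjusted p = 1.7e-05), HY5 (0.00578), RUP2 (0.0159), ELIP2 (0.0177) and SPA4 (0.0296), against 28.1% of tested genes. For HY5 the ex3 mornings held 5.79, 5.28 and 5.42 in Col-0 and 4.2 and 4.55 in Vel, and the evenings 2.93, 4.06 and 3.97 in Col-0 and 4.17, 4.35 and 3.85 in Vel. The 2 Vel sets overlapped and the Col-0 sets did not. The ex3 evening difference was -1.84 in Col-0 (SE 0.198, adjusted p = 4.4e-11), -0.93 in Bon, -0.83 in Moj and -0.25 in Vel (adjusted p = 0.43). In ex2 RUP1 fell in the evening in Bon (-1.42, adjusted p = 3.9e-10) and Col-0 (-0.77, adjusted p = 0.00012), with differences of -0.19 in Vel and -0.02 in Moj that did not pass. ELIP2 had an ex2 evening difference of 2.04 in Vel (adjusted p = 7.5e-06), 1.48 in Col-0, 1.26 in Bon and 0.11 in Moj (adjusted p = 0.855). The SPA4 test failed in 5 leave-one-out fits (adjusted p up to 0.0662) and under reference gene scaling (0.136).

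Other genes of the pathway were followed in 5 lists. Of 15 ultraviolet and HY5 target genes, 13 were higher in the ex1 evening and none lower, against 22.1% of tested genes higher and 25.7% lower. The median difference was 1.07, against -0.03 over all tested genes. The flavonol regulators MYB12 (3.45, SE 0.119, adjusted p = 2.4e-32) and MYB111 (2.70, SE 0.121, adjusted p = 6.4e-27) and the photolyase gene PHR1 (1.495, SE 0.076, adjusted p = 1.3e-24), which repairs ultraviolet lesions in DNA, had the smallest p-values. In ex2 the list divided, 8 higher and 6 lower, against 33.7% and 33.1% of tested genes (66.8% in all). The flavonoid enzyme genes FLS1 (3.08, adjusted p = 9e-31), CHS (3.38, adjusted p = 6.9e-29) and F3H (2.46, adjusted p = 3.3e-24) were higher in the evening. PHR1, followed on from ex1, was lower (-1.04, adjusted p = 4e-19). The counts were again 8 and 6 in ex3 (29.9% and 28.7% of tested genes) and 7 and 6 in ex4 (25.0% and 23.9%). From ex1 to ex2, 14 of the 15 fell and none rose, against 43.7% of tested genes falling and 39.5% rising (83.2% in all). The median change was -1.27, against -0.03 over all tested genes. PHR1 (-1.68), CRY3 (-1.49), a cryptochrome of the DASH type, and the photolyase gene UVR3 (-1.41) had the smallest p-values.

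**Figure D5:**
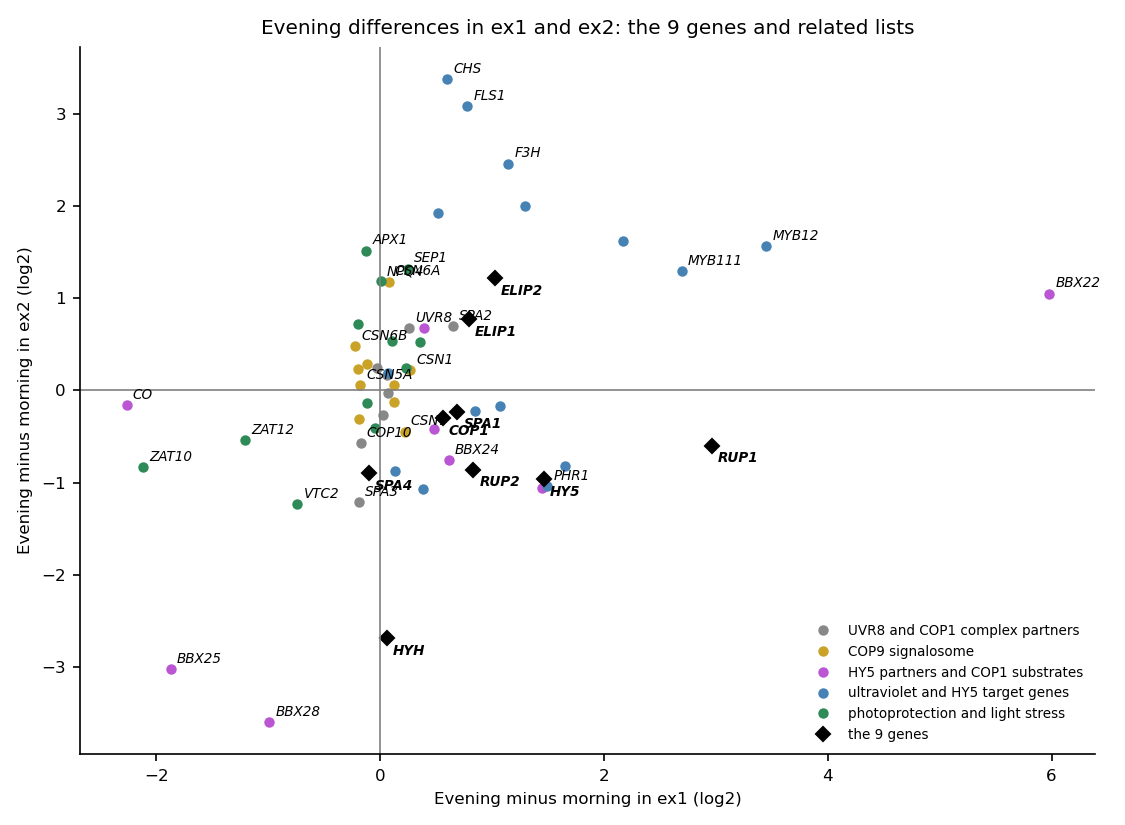
Evening minus morning difference in ex1 (horizontal axis) against that in ex2 (vertical axis), log2 units, for the 9 genes (black diamonds) and the genes of 5 related lists (coloured points). Names are given for the 9 genes and for the 3 genes of each list with the smallest adjusted p in either collection. HY5, RUP1, RUP2, COP1 and SPA1 lie at the lower right together with PHR1, while MYB12, MYB111, CHS, FLS1 and F3H lie in the upper right.

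UVR8, the ultraviolet-B receptor gene, was higher in the evening in every collection, by 0.26 in ex1 (SE 0.053, adjusted p = 3.2e-05), 0.68 in ex2, 1.09 in ex3 and 0.74 in ex4 whereas RUP1 and RUP2 were higher only in ex1. In the list of UVR8 and COP1 complex partners, 2 of 8 genes were higher and 2 lower in the ex1 evening, and 4 and 3 in ex2. For these and the next lists the shares of all tested genes were 22.1% higher and 25.7% lower in ex1, and 33.7% and 33.1% in ex2. The COP1 partner gene SPA2 was higher in the evening in ex1 (0.65) and ex2 (0.70), and SPA3 was lower in ex2 (-1.21, adjusted p = 6.7e-21). Of 10 COP9 signalosome genes, which encode a regulator of cullin ubiquitin ligases, 3 were higher and 4 lower in the ex1 evening, and 5 and 3 in ex2. CSN6A differed most clearly in ex2 (1.18, adjusted p = 1.3e-25). Among 8 HY5 partners and COP1 substrates, 5 were higher and 3 lower in the ex1 evening, and 2 higher and 5 lower in ex2. The B-box gene BBX22 rose by 5.98 in the ex1 evening (SE 0.092, adjusted p = 1.3e-49) and by 1.05 in ex2, where it ranked outside the 3 smallest p-values. BBX28 (-3.60) and BBX25 (-3.03), which encode B-box proteins, fell in the ex2 evening. HFR1, a transcription factor gene named here after its values were seen, differed by 1.45, -1.06, -0.97 and -0.04 in ex1 to ex4, beside 1.46, -0.96, -0.97 and -0.04 for HY5. These differences weight accessions equally, and the likeness was not tested. Averaged over libraries instead, HFR1 in ex4 was at 4.69 in the morning and 4.45 in the evening.

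Of 12 photoprotection and light-stress genes, 10 fell and 2 rose from ex1 to ex2, a step in which 83.2% of tested genes were called (43.7% falling, 39.5% rising). NPQ1, which encodes violaxanthin de-epoxidase, fell by 1.05 (adjusted p = 1.3e-25), LIL3:2 by 0.70 and SEP1 (stress-enhanced protein) by 0.95. ELIP1 and ELIP2 encode relatives of the SEP1 and LIL3 proteins. In the ex1 evening 3 of the 12 were higher, among them NPQ1 (0.35), 4 lower and 5 not called, against 22.1% and 25.7% of tested genes. The stress-related zinc finger genes ZAT10 (-2.12) and ZAT12 (-1.20) and the ascorbate synthesis gene VTC2 (-0.74) had the smallest p-values and were lower.

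Likeness to each member was measured as Pearson correlation of the 28 group means over 14653 genes with a mean of at least 2, as a description without a test, since groups share collection and time of day. HY5 was most like SIGE (AT5G24120, the plastid sigma factor gene also called SIG5; r = 0.897), MYB13 (0.891) and GNC (0.853). COP1 was most like SPS2 (0.932), ABCB26 (0.917) and SIGE (0.901). HYH was most like the B-box gene BBX32 (0.956), TZP (0.955) and AT1G75180 (0.952), higher values than those for any other member. RUP1 was most like UGT71C4 (0.878), AT5G12010 (0.876) and ABCI20 (0.858), and RUP2 most like AT1G71360 (0.945), AFP2 (0.934) and AO (0.927). SPA1 was most like THO2 (0.915), ABCF2 (0.906) and AT3G17800 (0.885), and SPA4 most like AT5G42760 (0.946), AT1G19490 (0.945) and ASG4 (0.938). ELIP1 reached no value above 0.82, with GPT2, whereas ELIP2 reached 0.883 with CTF2A. Among the 9 genes themselves the highest correlations of group means were HYH with SPA4 and COP1 with SPA4 (both 0.86), and ELIP1 with ELIP2 had -0.04. After group means were removed, ELIP1 and ELIP2 correlated at 0.54 and HY5 and HYH at 0.64 over the libraries.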

How the data were processed

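RNA-seq values of 80 rosette libraries were used as the authors deposited them, in log2 units. Per the submitters' processing notes the authors used FastQC, HISAT2 and StringTie on TAIR10. Tool versions are not given in the sources used here. No source states the log2 scale, its offset of 1 or the quantile normalization, all of which were inferred from the deposited numbers. Depth per library is unknown, so no interval that needs it is given. Reads of genes that overlap on opposite strands may be mixed, since the kit keeps no strand information.

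Genes reaching 1 in 3 or more libraries entered a linear model (limma 3.58.1, R 4.3.3; tables read by the data.table package, version 1.17.8) with 1 mean per group, a trend, 51 residual degrees of freedom, two-sided tests and Benjamini-Hochberg adjusted p under 0.05. Contrasts weighted groups equally. The procedure was tested on simulated data. Of the identifiers, 32835 matched the reference annotation. The members and gene lists were chosen with earlier results of these data known. Of other lists, the 3 genes with the smallest adjusted p in a comparison may be named, and UVR8 always. Alternatives were other offsets, filters, scalings, priors, library sets and a replicate block. Promoters were read with Python 3.11.15. Plots came from matplotlib 3.10.9, with pandas 2.3.3 for tables and numpy 2.4.6.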

Additional observations from a re-analysis of the deposited data

Results flagged for a closer look

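Effects of time of day that differed between collections by the limma interaction test were marked, as were effects that differed between accessions by the F test. From ex1 to ex2 the evening difference changed by -2.42 (HY5), -2.75 (HYH), -3.56 (RUP1), -1.69 (RUP2), -0.86 (COP1), -0.92 (SPA1) and -0.80 (SPA4). From ex2 to ex3 it changed by -0.46 (HYH), -0.24 (COP1), -0.64 (SPA1), -0.50 (SPA4) and -2.2 (ELIP2). From ex3 to ex4, in Col-0 and Vel, it changed by 1.005 (HY5), 0.45 (SPA1), 0.40 (SPA4), -1.98 (ELIP1) and -2.21 (ELIP2).

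The evening difference varied among accessions with adjusted p of 0.00578 (HY5), 1.7e-05 (RUP1), 0.0159 (RUP2), 0.0296 (SPA4) and 0.0177 (ELIP2) in limma's F test. The change between collections varied among accessions with adjusted p of 0.017 (HY5), 0.00388 (HYH), 0.0404 (RUP1), 0.018 (RUP2), 0.003 (SPA1), 0.00187 (SPA4) and 0.0264 (ELIP2). Groups held 2 or 3 libraries, too few to look for single outlying libraries.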

How the results depend on the processing

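Of 171 member results, none reversed under any alternative. All 171 kept their call with an offset of 0.1, with a stricter filter (at least 2) and without a trend, 170 without a filter, 166 with the left-out Moj library, 165 with only the compared groups, 161 when scaled to 5 reference genes and 160 with array weights. Array weights raised the genes called for the change of the evening difference from ex3 to ex4 from 2074 to 4144, and for the evening difference by accession from 5869 to 10019; the cause was not tested. With only the groups compared, 5 members passed from ex3 to ex4 in place of 8, in a fit on fewer libraries. Leaving out each library in turn, the members passing ranged from 5 to 9 for ex3 to ex4, and 149 of 171 results kept their call in all 79 fits. Of 306 results within single accessions or collections, at most 25 lost and 24 gained a call under one of the settings other than leaving out a library, which was not tallied for them.

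Scaling to reference genes moved the share of higher calls from 46.2 to 35.8% (evening in ex1), 51.0 to 34.1% (ex3), 51.1 to 36.3% (ex4), 49.4 to 37.1% and 50.5 to 64.0% (change of the evening difference, ex2 to ex3 and ex3 to ex4), 49.4 to 65.5% (Bon) and 48.0 to 61.8% (Moj, both against Col-0), and 52.2 to 30.4% and 53.2 to 33.5% (Vel against Bon and Moj). It moved the median of all genes most for the evening in ex3, from 0 to -0.12.

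The deviations of same-numbered libraries from their group means had a median r of 0 between any 2 groups (1002 pairs, 204 over 0.1). Between morning and evening of 1 accession and collection, median r was 0.05 for same numbers (37 pairs, 12 over 0.1). For other numbers it was -0.03 (74 pairs, 20 over 0.1). With 2 or 3 libraries a group, such values cannot exclude pairing, and libraries were treated as unpaired. Among the 171 member results the replicate block changed 1 call, ELIP2 from ex2 to ex3 (0.29, adjusted p = 0.0425, against 0.0535). It lost no call, and gained 3 among the 306 finer results. Depth is unknown, and quantile normalization limits what can be read of the top-ranked ELIP1.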
